A study of Rattus norvegicus with 2 samples.

Results

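The genes described here encode the membrane transporters that carry bile acids, organic anions, organic cations, lipids and drugs into and out of liver cells. They were chosen by symbol alone: the ATP-binding cassette (ABC) subfamilies A to G, the organic anion transporting polypeptides (Slco), the bile acid carrier family Slc10a and the organic ion carrier family Slc22a. The rule gave 72 genes on 90 probe sets, of 13511 genes with 1 symbol and 31038 probe sets analysed. Of these, 34 genes belong to the uptake families Slco, Slc10a and Slc22a, and 38 to the ABC families, which are set against them as the export families. RNA was taken from primary hepatocytes of male SD (Sprague-Dawley) rat liver, kept in growth-factor medium on plates coated with collagen. The control cells were left without hormone, and the T3 cells received 1 nM triiodothyronine, the active form of thyroid hormone, for 24 h. Each group has 1 Affymetrix expression array, so there is no replicate, no difference was tested, and precision is limited by that number. Whether cells came from 1 animal or from a pool is not given.

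In the liver, uptake carriers on the sinusoidal side, which faces the blood, bring bile acids and organic ions into the hepatocyte. ABC proteins use ATP to move substrates across membranes, and those on the canalicular side, which faces the bile duct system, drive bile acids, phospholipid, sterols and conjugated drugs into bile. Other ABC proteins work at the blood side, in mitochondria, peroxisomes and lysosomes, and the E and F subfamilies serve ribosomes and translation and transport nothing. In culture, hepatocytes are known to lose much of their sinusoidal uptake.

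Signals are the deposited linear MAS5 intensities, with control first and T3 second wherever a pair is given, and the log2 ratio is log2 of T3 over control. A probe set called present by the deposited detection call was taken as detected. It was counted as past a fold when the ratio reached that fold and the brighter array was called present. Over all probe sets 59.1% were present on at least 1 array, and the median log2 ratio of those present on both was -0.01. The signal of a probe set depends on its probes, so ratios were taken between the arrays and not between genes. Sums of marker signals and the choice of the brightest genes or probe sets depend on the probes as well. In whole cultures, fewer cells of a type and less RNA per cell cannot be told apart. All 8 hepatocyte markers examined were detected, among them Alb, with signals of 3972 and 3449, and Ttr, with 2232 and 2273. Their ratios lay on both sides of 1, from 0.868 for Alb to 1.35 for Cps1, with signals of 84.1 and 113. Of the bile duct markers 3 of 5 were detected (Krt19, Krt7 and Epcam), with ratios from 0.868 to 0.906. All 7 markers of stellate cells and fibroblasts were detected, Col1a1 on the T3 array alone, and did not go one way. Col1a1 (9.02 and 8.01), Col3a1 (8.11 and 9.93) and Lrat (13.8 and 7.32) had dim signals. Ratios were 1.21 for Acta2, 1.22 for Des and 1.22 for Col3a1, against 0.874 for Vim, 0.899 for Tagln, 0.888 for Col1a1 and 0.532 for Lrat. Of the macrophage markers 1 of 4 with a probe set was detected, and of the endothelial markers 1 of 4.

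The families differed in how many members were detected at all. Of the 41 probe sets of the uptake families 17 were present on at least 1 array (41.5%), and of the 49 of the ABC families 41 were (83.7%). By gene, 16 of 34 uptake genes (47.1%) and 31 of 38 ABC genes (81.6%) were detected, against 71.6% of all named genes. The Slco family stood lowest, with 4 of 19 probe sets present, while Abca, Abce and Abcf had a present call for each probe set. These calls were nearly the same on both arrays: 54 of the 90 probe sets were present in control and 55 with T3. Detection was not tested between families, and a missing call shows only that the probes did not stand above their mismatch partners on that array.

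**Figure D1:**
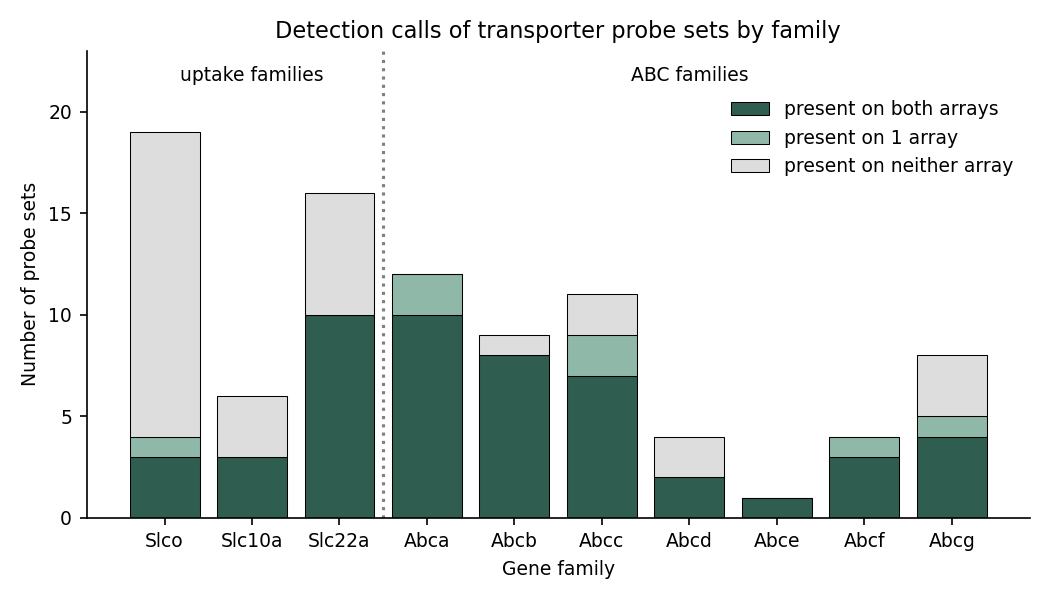
Number of transporter probe sets (vertical axis) in each gene family, stacked by whether the deposited call was present on both arrays, on 1 array or on neither. In Slco 15 of 19 probe sets were present on neither array, and in Abca 0 of 12.

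The classical sinusoidal carriers of the Slc10a and Slco families were not detected in either culture. Slc10a1, the sodium-taurocholate cotransporter NTCP, had signals of 9.33 (absent) and 13.4 (marginal). Slco1a1, Slco1a4, Slco1b2 and Slco2b1, the sodium-independent organic anion carriers of the sinusoidal membrane, have 8 probe sets, and 0 were called present. With Slc10a1, their signals ran from 0.825 to 22.9 on the 2 arrays, with T3 above control in 6 of 9 probe sets. Probe sets of 1 gene went opposite ways: for Slco1a4 the signals were 11.1 and 22.9 in one and 4.12 and 1.08 in the other. No fold is given for these genes, since both arrays lay below detection. Slc22a7, another classical gene of hepatic uptake, was detected on both arrays. Of the 11 classical ABC genes with a probe set of their own 9 were detected.

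**Figure D2:**
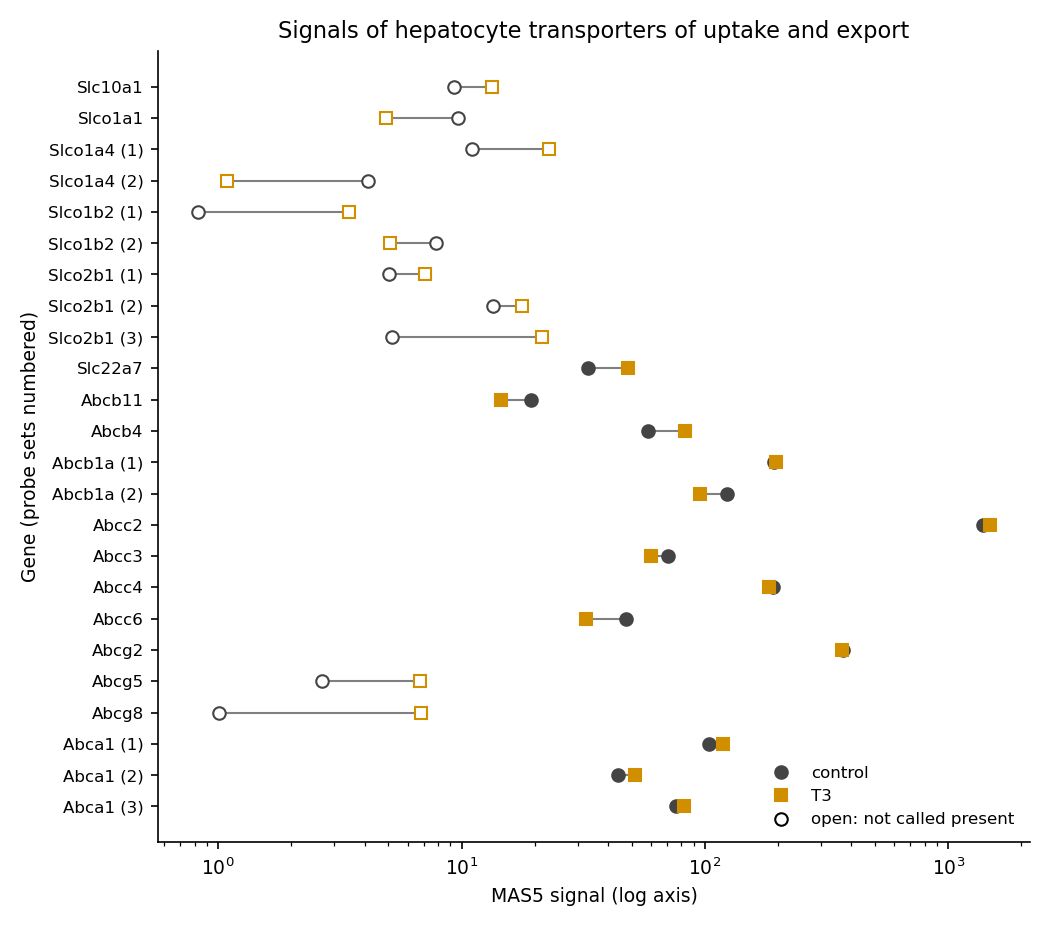
MAS5 signal (horizontal log axis) on the control array (circles) and the T3 array (squares) for classical hepatocyte transporters, 1 line per probe set, with open symbols where the call was not present. Slc10a1 and the Slco genes have open symbols on both arrays, as do Abcg5 and Abcg8, while Abcc2 stood at 1391 and 1488.

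The start-proximal sequence of 4 of these genes is shown. Slc10a1 is a bile acid uptake gene that was not detected, and Abcc2 a canalicular exporter with like signals in both cultures. Slc22a7 and Abcb4 are the uptake and export genes that came closest to a 1.5-fold higher signal with T3 while present on both arrays. No gene with a lower signal with T3 is shown. Each sequence is the 250 bases before the annotated start in RefSeq, build GRCr8, 5′ to 3′ on the gene's strand. Capitals mark AGGTCA or its reverse TGACCT, the half-site that thyroid hormone receptors and other nuclear receptors are known to bind. The windows are chr6:106357945-106358194 on the minus strand for Slc10a1, chr1:252613625-252613874 on the plus strand for Abcc2, chr9:22045248-22045497 on the plus strand for Slc22a7 and chr4:26164146-26164395 on the minus strand for Abcb4.
Slc10a1: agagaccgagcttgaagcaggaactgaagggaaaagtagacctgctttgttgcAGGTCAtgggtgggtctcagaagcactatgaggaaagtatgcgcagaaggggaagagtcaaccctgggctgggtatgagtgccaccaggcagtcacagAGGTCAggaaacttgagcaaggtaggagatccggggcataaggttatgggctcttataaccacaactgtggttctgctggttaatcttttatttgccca
Abcc2: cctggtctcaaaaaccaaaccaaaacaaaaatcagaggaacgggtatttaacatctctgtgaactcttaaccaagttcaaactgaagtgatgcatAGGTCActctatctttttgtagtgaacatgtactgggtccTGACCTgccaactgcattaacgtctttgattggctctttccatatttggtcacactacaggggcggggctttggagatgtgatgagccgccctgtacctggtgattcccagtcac
Slc22a7: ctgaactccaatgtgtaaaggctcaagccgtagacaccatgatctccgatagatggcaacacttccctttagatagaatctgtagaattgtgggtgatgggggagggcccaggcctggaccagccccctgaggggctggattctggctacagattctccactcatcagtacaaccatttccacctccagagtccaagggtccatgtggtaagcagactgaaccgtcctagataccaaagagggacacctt
Abcb4: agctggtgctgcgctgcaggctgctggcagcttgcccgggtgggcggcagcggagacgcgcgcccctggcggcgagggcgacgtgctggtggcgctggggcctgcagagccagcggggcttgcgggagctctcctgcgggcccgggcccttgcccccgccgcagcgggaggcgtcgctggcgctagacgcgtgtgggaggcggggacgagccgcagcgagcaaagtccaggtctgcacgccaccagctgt
Slc10a1 holds 2 matches, which begin 197 and 99 bases before the start, and Abcc2 holds 2, at 155 and 115 bases. Slc22a7 and Abcb4 hold none in this window. Of the 72 genes, 59 matched a RefSeq window, and 9 of these 59 (15.3%) hold the half-site on either strand, beside 14.1% of all 33469 windows.  A match describes letters only, and its absence says nothing about the receptor.

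Among the bile acid carriers, the members detected were not the hepatic one. Slc10a2, the apical sodium-dependent bile acid transporter ASBT of ileum, kidney and bile duct, was present on both arrays with signals of 376 and 425, a log2 ratio of 0.17. Of 5 bile duct markers 3 were detected, with summed signals of 2805 and 2457, and Krt19 alone had 1240 and 1079; Sox9 and Spp1 were not called present. These stood on the other side of control from Slc10a2, and the part of bile duct cells in the Slc10a2 signal was not tested. Slc10a3, an orphan member, had 84.7 and 87.4. Slc10a7, an orphan carrier known for its role in skeletal disease in humans, had 24.6 and 28.7. All 3 lay above control by less than 1.2-fold, and Slc10a4 and Slc10a5 were absent on both arrays.

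Of the 12 Slco genes 3 had a detected probe set, and none is a sinusoidal carrier of the classical list. Slco2a1, the prostaglandin transporter, had signals of 73.6 and 60.1, a ratio of 0.816. Slco3a1, a widely expressed organic anion and prostaglandin carrier, gave 175 and 158 in one probe set and 141 and 128 in the other, ratios of 0.905 and 0.907. These near-equal ratios came from probe sets that measure the same RNA, so they repeat the hybridisation and not the culture. Slco4a1, a carrier of thyroid hormone and prostaglandins, was called present with T3 alone, at 9.97 beside an absent control signal of 10.3. Slco1c1, the thyroxine carrier of brain vessels, was absent on both arrays, with signals of 0.390 and 0.280.

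The Slc22a family had 10 of 16 genes detected, all on both arrays. Slc22a8, the organic anion transporter OAT3, best known from the kidney, had signals of 1258 and 1200.5, a ratio of 0.955. Slc22a18, an imprinted orphan carrier, had 777 and 788. Slc22a7, the organic anion transporter OAT2 of the liver sinusoid, gave 33.0 and 48.4, a ratio of 1.47, which was the highest among detected uptake genes. It lay within the central 95% of ratios of the 500 probe sets nearest in signal, which ran from 0.669 to 1.55, at percentile 95.6.

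The other Slc22a members were close to control or dim. The carnitine carrier gene Slc22a5 (OCTN2) had signals of 99.6 and 105, and Slc22a4, the ergothioneine carrier gene, 70.0 and 65.6. Slc22a17, which encodes a receptor for lipocalin 2, had 59.7 and 67.9. Ratios were 1.30 for Slc22a15 (24.4 and 31.6) and 1.27 for Slc22a9, whose current symbol is Slc22a25 (11.5 and 14.6). The orphan Slc22a23 had a ratio of 0.800 (34.1 and 27.2). A brighter Slc22a23 probe set under an older name, outside the rule, gave 0.991 (151 and 149.7). The organic anion carrier genes Slc22a6 and Slc22a12 and the cation carrier genes Slc22a2 and Slc22a3, known from kidney or other tissues, were absent on both arrays.

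At the canalicular side, most exporters were detected and ratios lay on both sides of 1. Abcc2, the multidrug resistance protein MRP2 that exports bilirubin glucuronides, had signals of 1391 and 1488, a ratio of 1.07. Abcg2, the breast cancer resistance protein BCRP, was near equal, at 369 and 367. Its log2 ratio of -0.01 turned to 0.00 after loess, the 1 sign among the 47 detected members that changed under median centring, loess or quantile normalization.

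Abcb4, the floppase that delivers phosphatidylcholine to bile, had signals of 58.1 and 83.0, a ratio of 1.43. It was the 1 of 51 member probe sets present on both arrays that lay outside the central 95% of its 500 neighbours in signal, whose ratios ran from 0.720 to 1.42. By construction about 5% of probe sets lie outside such a range, which 1 of 51 does not exceed. Abcb11, the bile salt export pump BSEP, went the other way, from 19.3 to 14.5, a ratio of 0.753, and lay inside the range of its neighbours (0.607 to 1.83). Abcg5 and Abcg8, which form the sterol exporter of the canaliculus, were absent on both arrays, with signals of 2.68 and 6.73 and of 1.005 and 6.79.

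Abcb1a, the drug efflux pump P-glycoprotein, was measured by probe sets that disagree. One gave 192 and 197, a ratio of 1.03, and the other 123 and 95.8, a ratio of 0.776. A further probe set, which the file assigns to both Abcb1a and the related gene Abcb1b and which therefore lies outside the rule, gave 2456 and 2217, a ratio of 0.903. Transcripts of the pair cannot be separated on that probe set.

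The blood-side exporters Abcc1, Abcc3, Abcc4, Abcc5 and Abcc6 were detected on both arrays, apart from a marginal T3 call for one Abcc5 probe set. Abcc3 (MRP3), which returns glucuronides and bile salts to blood, had signals of 70.8 and 60.3, a ratio of 0.851. Abcc4 (MRP4), an exporter of cyclic nucleotides and bile salts, had 189.9 and 184, a ratio of 0.968. Abcc1 (MRP1), an exporter of leukotriene C4 and glutathione conjugates, had 112 and 105, a ratio of 0.933. Ratios of all 3 were below 1 by less than 1.2-fold.

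Abcc6, a hepatic protein of ATP release whose loss causes pseudoxanthoma elasticum in humans, had the lowest ratio among members present on both arrays. Its signals were 47.4 and 32.5, a ratio of 0.687, or 1.46-fold lower, at percentile 3.0 of its neighbours in signal. Abcc5 (MRP5), a cyclic nucleotide exporter, gave 85.6 and 98.4 in one probe set and 32.8 and 27.8 in the other.

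The cholesterol exporters that load high-density lipoprotein were also detected. Abca1, which passes cholesterol to apolipoprotein A-I, was above control in all 3 of its probe sets, with signals of 104 and 119, 76.1 and 82.3, and 44.0 and 51.6. Its ratios ran from 1.08 to 1.17, at percentiles 73.8 to 88.8 of neighbours in signal. Abcg1, which exports sterol to mature particles, was less uniform, at 196 and 224 (ratio 1.15) in one probe set and 42.0 and 36.3 (ratio 0.864) in another. In the third it was called present on the T3 array alone, with 11.5 and 17.97.

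Other members of the A subfamily and the intracellular ABC proteins stayed within 1.27-fold of control where present on both arrays. Abca2, a lysosomal lipid transporter, had the highest ratio of them, 1.27, at signals of 81.5 and 103. Abca3, the surfactant lipid transporter of lung, gave ratios of 0.932 and 0.859. Abca7, a phospholipid transporter, had a ratio of 0.974, and Abca4, the retinoid transporter of photoreceptors, 1.07. Of the mitochondrial proteins, Abcb10 had ratios of 0.886 and 0.971 and Abcb8 of 1.05. Abcb6, known for porphyrin transport, had a ratio of 1.10. Abcd3, the peroxisomal membrane protein PMP70 that takes in fatty acyl-CoA, had signals of 159 and 179, a ratio of 1.12. Abcd4, a lysosomal cobalamin transporter, had 62.2 and 57.2.

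The E and F subfamilies, which transport nothing, serve as a comparison inside the ABC genes. Abce1, a ribosome recycling factor, had signals of 437 and 423, a ratio of 0.969. Abcf1, Abcf2 and Abcf3, which act in translation, had ratios of 1.16, 1.04 and 1.001 in their brightest probe sets.

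Members past 1.5-fold were few, near the shares over all probe sets, and had low signals. At least 1.5-fold higher were 2 of 90 probe sets, beside 2.43% of all probe sets, and at least 1.5-fold lower was 1, beside 1.56%. At 2-fold, 1 was higher (0.754% of all) and 0 were lower (0.519% of all). After quantile normalization the 1.5-fold counts over all probe sets went from 754 higher and 485 lower to 604 and 609, and those of the members to 1 and 1. The 3 member probe sets had signals of 2.77 to 17.97, and 0 of them were present on both arrays.

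The higher ones were Abcc9 and the dimmest Abcg1 probe set. Abcc9 encodes SUR2, the sulfonylurea receptor subunit of ATP-sensitive potassium channels of muscle and vessels, and exports nothing. Its signals were 2.77 (marginal) and 7.44 (present), a ratio of 2.68, and its second probe set was absent on both arrays, at 2.98 and 4.56. Abcg1 had a ratio of 1.57 in its dimmest probe set, against 1.15 and 0.864 in those present on both arrays. Of the endothelial markers only Egfl7 was detected, at 31.0 and 47.8, while Pecam1, Kdr and Lyve1 were not. Of the macrophage markers only Cd163 was, at 4.79 and 7.64, while Cd68, Clec4f and Ptprc were not. Of the 7 stellate and fibroblast markers 3 lay above control (Acta2, Des and Col3a1) and 4 below, with Lrat at 13.8 and 7.32. Their summed signals were 2897 and 2609, of which Vim (1621 and 1418) and Tagln (1096 and 986) made up most. The part of these cell types in the Abcc9 and Abcg1 ratios was not tested. The lower one was Abca8a, an ABC lipid transporter, with 8.67 (present) and 5.09 (absent), 1.70-fold lower. Each of these 3 folds is taken against the gene's own absent or marginal signal, which exceeded the lowest present signal of its array. A signal without a present call sets no upper limit on the RNA, so these folds are not minimum values. In the authors' deposited tables of probe sets past a fold stand the same 3 member probe sets, Abcc9 at 2-fold and 1.5-fold, Abcg1 and Abca8a at 1.5-fold.

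Just outside 1.5-fold lay 4 genes present on both arrays, Slc22a7 (1.47-fold) and Abcb4 (1.43-fold) on the higher side and Abcc6 (1.46-fold) and Abcb11 (1.33-fold) on the lower side. Each of these has 1 probe set, so there is no second measurement on the same array.

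**Figure D3:**
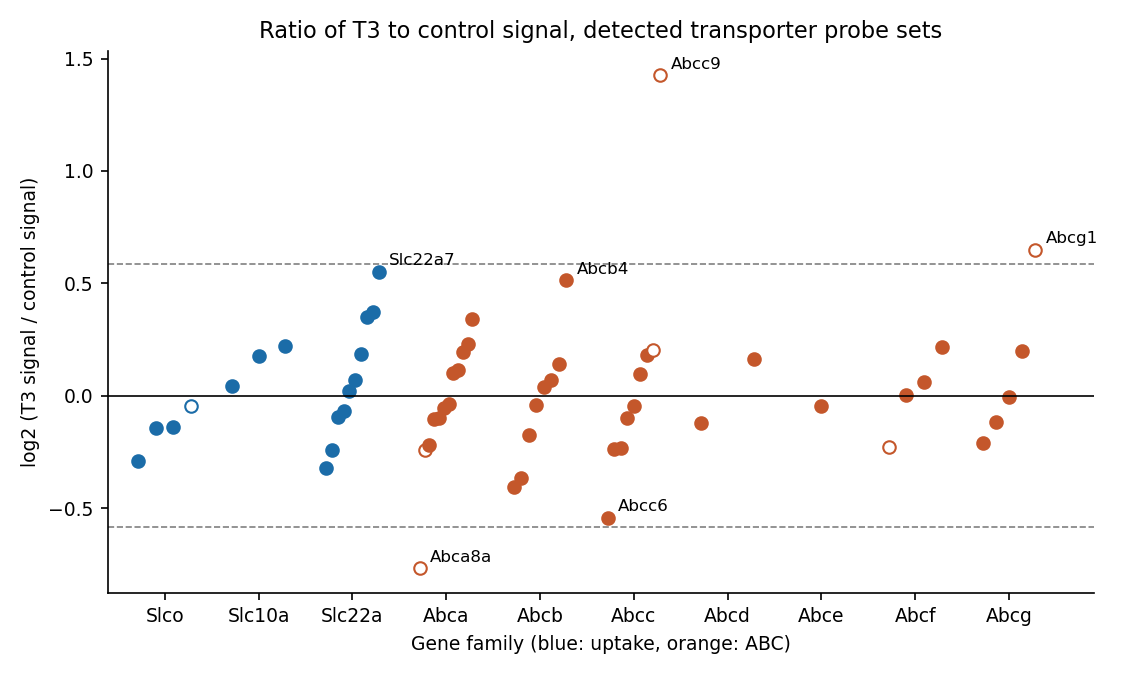
The log2 ratio of T3 to control signal (vertical axis) of each transporter probe set present on at least 1 array, by family, filled where present on both arrays and open where present on 1. Dashed lines mark 1.5-fold; the 3 points beyond them, Abcc9, Abcg1 and Abca8a, are open.

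Uptake and export families had nearly the same centre. With 1 probe set per gene, the 16 detected uptake genes had a median log2 ratio of 0.03, with 9 above 0 and 7 below. Their ratios ran from 0.800, for Slc22a23, to 1.47. A brighter Slc22a23 probe set outside the rule gave 0.991. The 31 detected ABC genes had a median of 0.00, with 16 above and 15 below, and ratios from 0.587 to 2.68. The uptake median exceeded the ABC median by 0.03 on the log2 scale. The difference was 0.07 when ABC was limited to 17 detected genes listed as plasma membrane exporters. That list includes Abca4, the retinoid transporter of photoreceptors, so it is not a strict set of exporters. The uptake side was not limited by function in the same way. Its 16 genes include orphan members such as Slc10a3, Slc22a18 and Slc22a23, and the receptor gene Slc22a17. Slc10a1 and the sinusoidal Slco genes are not among them, since they were not detected. Without dim probe sets the difference had the other sign, -0.04. All 9671 detected genes had a median of 0.00, with 4841 above 0.

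Counts of genes past 1.5-fold could not separate groups of 16 and 31 detected genes, given the small shares over all genes. Among uptake genes 0 were higher and 0 lower. Among ABC genes 1 was higher, Abcc9, and 1 lower, Abca8a, beside 2.81% and 1.68% of all detected genes. Ratios within 1.2-fold of control made up 68.8% of detected uptake genes (11 of 16), 80.6% of detected ABC genes (25 of 31) and 81.4% of all detected genes. By subfamily, medians ran from -0.14 in Slco (3 genes, 0 above 0) to 0.17 in Slc10a (3 genes, 3 above 0), both too few to describe a family. Without a replicate the size of a real difference that these arrays could have missed is unknown.

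**Figure D4:**
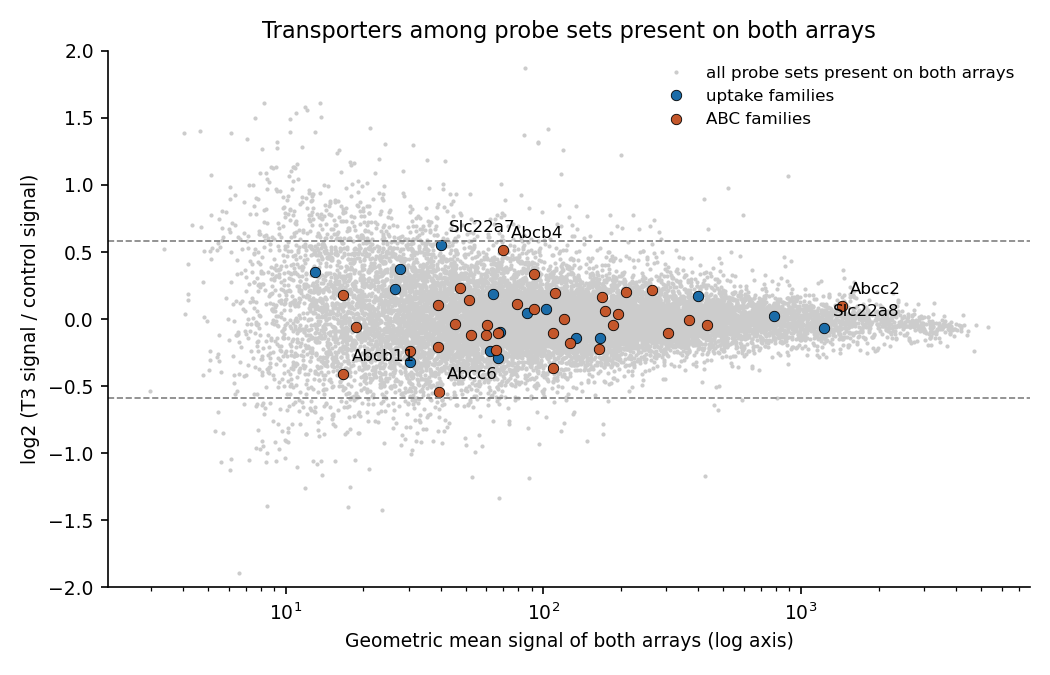
The log2 ratio of T3 to control signal (vertical axis) against the geometric mean signal of both arrays (horizontal log axis), for uptake members (blue), ABC members (orange) and all 16524 probe sets present on both arrays (grey, with 2 beyond the vertical range). Dashed lines mark 1.5-fold; 50 of 51 members lay within the central 95% of their neighbours in signal.

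Repeat probe sets of a gene show how far single ratios carry. Of 9 member genes with more than 1 detected probe set, 5 had all of them on the same side of control and 4 did not, beside 50.8% on the same side among all 2480 such genes. The same-sided genes were Abca1, Abca3, Abca8b, Abcb10 and Slco3a1. The others were Abcb1a, Abcc5, Abcf3 and Abcg1, and in Abcg1 the ratios ran from 0.864 to 1.57. The ratios of Abcb1a, 0.776 and 1.03, and of Abcg1 differed by more than most members differed from control.

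**Figure D5:**
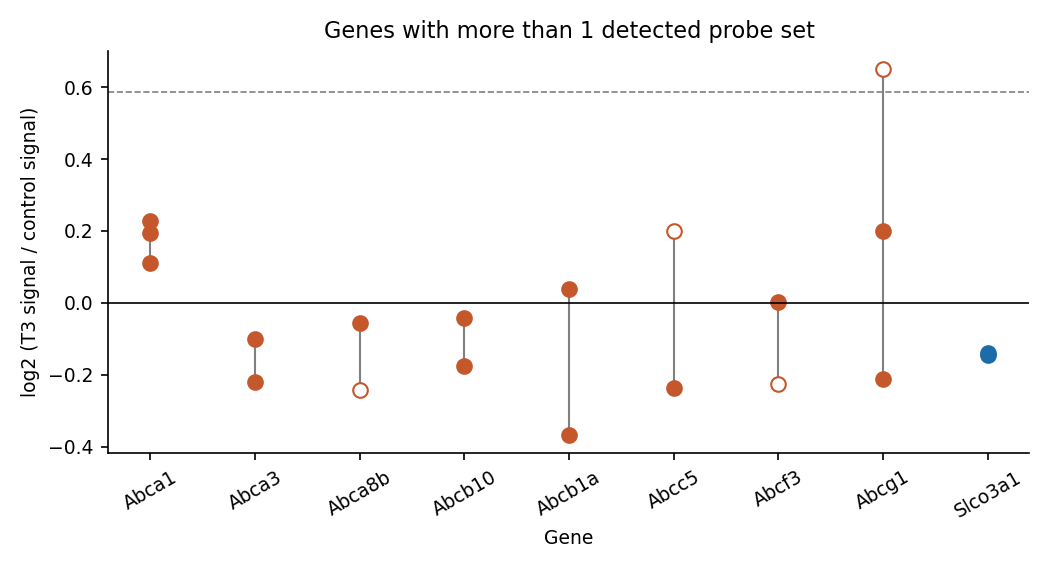
The log2 ratio of T3 to control signal (vertical axis) for each detected probe set of the 9 member genes with more than 1, joined by a line per gene, filled where present on both arrays and open where present on 1. The probe sets of Abca1 lie above 0 and those of Slco3a1 nearly coincide below 0, while Abcb1a, Abcc5, Abcf3 and Abcg1 span 0.

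Other genes of the transport pathway were also close to control. Of 32 partner genes listed, 28 are named on the array and 23 of these were detected. Among the 23, 0 were at least 1.5-fold higher and 0 lower, beside 2.81% and 1.68% of all detected genes. With shares that small, 0 of 23 says little about these genes. Their log2 ratios were above 0 in 9 and below in 14, with a median of -0.09. The scaffold proteins that hold transporters at the apical membrane were detected: Ezr had signals of 2845 and 2519.5 (ratio 0.886), Nherf1 1078 and 976 (ratio 0.905) and Rdx, the radixin that anchors MRP2 at the canaliculus, 803 and 766 (ratio 0.953). Atp8b1, the phospholipid flippase lost in familial cholestasis in humans, had 175 and 159.7 (ratio 0.914).

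The vesicle traffic genes of the apical pathway did not move as one. Rab11a, a GTPase of recycling endosomes, was near equal, at 1660.4 and 1686. Its motor Myo5b had a ratio of 0.903, and Stx3, an apical membrane fusion protein, had 66.9 and 47.5, a ratio of 0.709.

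Of the 9 nuclear receptor genes among the partners 7 were detected, with ratios from 0.888 to 1.17. Nr1h4, the bile acid receptor FXR, and Nr1i3, the xenobiotic receptor CAR, were not called present on either array. Nr1i2, the xenobiotic receptor PXR, was present in control (91.4) and marginal with T3 (84.3). Rxra, the shared dimer partner of these receptors, had 321 and 285 (ratio 0.888), Hnf4a 139 and 137, and Nr1h3, the oxysterol receptor LXR alpha that drives Abca1 and Abcg1, 102 and 106. Its relative Nr1h2 (LXR beta) had 239 and 224 (ratio 0.936). Nr5a2, the receptor LRH-1 of bile acid synthesis, had 13.1 and 15.3 (ratio 1.17), and Nr0b2, the repressor SHP, was present in control alone, at 9.52 and 9.74 (ratio 1.02). Slc51a, a subunit of the basolateral bile acid exporter, and Slc47a1, a cation exporter, were not detected.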

How the data were processed

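RNA from 1 control and 1 T3 culture was hybridised to Affymetrix expression arrays. Per the submitters' processing notes the arrays were processed with Affymetrix Expression Console, whose version is not given in the sources used here. The authors deposited 1 linear MAS5 intensity per probe set, named normalized in the file headers, with a detection p-value and call, and a ratio column. The deposited detection p-values reached 0.0461 for present calls and began at 0.0676 for absent calls. The deposited ratio equalled T3 over control intensity, and the series value table held the same intensities.

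The 57 control probe sets were left out of 31095. Log2 ratios were computed with no pseudocount. Each gene was represented by its detected probe set of highest mean signal. Where only the brighter array was present, a fold was also taken against the other signal or that array's lowest present signal, whichever was higher. Families were described by counts and medians, with each probe set ranked among the 500 nearest in geometric mean signal and present on both arrays. Named were classical hepatocyte transporters, genes past or nearest to 1.5-fold, the brightest 5 per family, genes with discordant probe sets and genes present on 1 array; other members and partners were named after their values were seen, to account for the lists. Single values of some members are not reported here. Members and lists were chosen with earlier results of these data known. All 90 probe sets matched the RefSeq gene table (GRCr8, used for names) by gene number, and 3 genes have another current symbol there: Abca8b (Abca8), Slc22a9 and Slc22a19 (Slc22a24). Python 3.11.15, pandas 2.3.3 and statsmodels 0.14.6 were used, tested on simulated data. Alternatives covered detection, pseudocount, dim probe sets, scaling, value source, probe set choice and the definition of export.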

Additional observations from a re-analysis of the deposited data

How the results depend on the processing

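Counts past a threshold rested on dim probe sets. The 2 higher and 1 lower member probe sets at 1.5-fold became 0 and 0 with a present call on both arrays, with a pseudocount of 16 or without dim probe sets. The 1 higher at 2-fold also became 0 there, and the 1 higher and 1 lower ABC gene became 0 and 0. Without a detection filter the probe set counts were 13 and 7 at 1.5-fold and 8 and 3 at 2-fold, with 5 higher and 3 lower uptake genes and 3 higher and 2 lower ABC genes. These changes follow from the settings, which remove, shrink or admit dim probe sets. Loess and quantile normalization left 1 higher probe set at 1.5-fold; the cause was not tested. With each gene read from its most changed probe set 2 ABC genes were higher. Among the listed plasma membrane exporters 0 were, since Abcc9 is not listed. The median log2 ratio ran from 0.02 to 0.04 for uptake genes and from -0.05 to 0.06 for ABC genes, and their difference from -0.04 to 0.08, over 12 settings. Of 348 single-gene values 346 moved by less than 1 SD of the log2 ratios of neighbours in signal. The others were Abcc5 with both arrays present (-0.24 in place of 0.20, from its other probe set) and Abcc9 with the pseudocount (0.32). Many of the 348 values could not move. The series value table held the same intensities, and the detection and dim probe set settings change only which probe sets are read. Median centring subtracts 1 constant from every log2 ratio. The count of 346 is therefore not a measure of how stable the ratios are. The setting with 5 further probe sets was chosen after seeing the data and kept every count. No paired analysis was possible because each group has 1 array.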

Other observations

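Some transporter transcripts lay outside the symbol rule because the file gives them an older name, several names or none. Among 5 probe sets whose current RefSeq symbol belongs to these families, 2 were present on both arrays. Nritp, now Slc22a23, had signals of 151 and 149.7, a ratio of 0.991, where the probe set of Slc22a23 under its own name gave 0.800. The predicted Abcg3-like gene now named Abcg3l4 had 297 and 267, a ratio of 0.899, close to Abcg3l1 with 54.6 and 50.3 and a ratio of 0.921. The kidney carrier gene Slco1a3 and Slc22a21 were absent on both arrays.

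The file also holds 2 probe sets without a symbol whose title likens them to mouse Abca1. One had signals of 144 and 162, a ratio of 1.13, on the side of the named Abca1 probe sets, and the other 26.3 and 22.3, a ratio of 0.848. Their assignment to the rat gene was not tested.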
